A study of Mus musculus with 6 samples.

Results

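The 9 genes described here encode the enzymes that write and remove DNA methylation, the isocitrate dehydrogenases that feed the removal step, and the chromatin regulator Asxl1. They were taken by symbol (Dnmt1, Dnmt3a, Dnmt3b, Tet1, Tet2, Tet3, Idh1, Idh2 and Asxl1). All 9 were among the 23955 symbols of the deposited table and among the 11931 tested genes. Haematopoietic stem cells (HSCs) were profiled by RNA sequencing in C57BL/6 mice of 4 months, either wild-type (WT) or homozygous for the db allele of the leptin receptor (db/db, obese). The controls were littermates, and no other allele or agent is named for either group. The cells were bone marrow cells negative for lineage markers and CD48 and positive for Sca-1, c-Kit and CD150, 20000 per library. Each of 3 independent experiments gave 1 WT and 1 db/db library, so n = 3 per group, and replicate numbers are experiment numbers. How many mice went into each library is not stated, so p-values measure only the spread between these libraries, which may be partly technical. The db allele is carried in every cell, and the obesity of these mice accompanies it in all 3 experiments, so the receptor allele and obesity cannot be told apart.

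DNA methylation sits mainly on cytosines that precede guanines (CpG). Dnmt3a and Dnmt3b place new methyl groups, and Dnmt1 copies the pattern onto the daughter strand after replication. The 3 TET enzymes oxidise 5-methylcytosine, which starts its removal, and they need 2-oxoglutarate, the product of the isocitrate dehydrogenases Idh1 (cytosol) and Idh2 (mitochondria). Asxl1 is a partner of the histone H2A deubiquitinase Bap1. Loss of Dnmt3a or Tet2 in mouse HSCs is known to favour self-renewal over differentiation, and DNMT3A, TET2 and ASXL1 are the genes most often mutated in clonal haematopoiesis in people.

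The CpG content of the genes' own promoters varied widely. RefSeq windows of 300 bases (250 before and 50 after an annotated start, GRCm38.p6) were found for all 9 genes, 14 windows in all. The windows held 2 to 57 CpG, with a median of 22.5, against a median of 7 and an interquartile range of 3 to 20 over 32851 windows of all genes. Of the 14, 8 lay above that interquartile range, 5 within it and 1 below it, and no test was made. The 14 are not independent, since the Dnmt3a windows with 46 and 47 CpG overlap. The windows of all genes were not limited to genes expressed in these cells. The Dnmt1 windows spanned 2 to 33 CpG, and the only windows of Asxl1, Tet1 and Idh2, with 13, 17 and 20, lay within the range. The single windows of Tet2 and Asxl1, with 57 and 13 CpG, were the richest and poorest among the 6 genes with 1 window. Their 250 bases before the start are printed because they show that contrast for a pair of genes central to clonal haematopoiesis, with each CpG in capitals. The Tet2 stretch lies on the minus strand of chr3:133544391-133544640 within an intron of a longer Tet2 transcript in GENCODE vM21. The Asxl1 stretch lies on the plus strand of chr2:153345580-153345829, and 190 of its bases overlap an exon of 2500004C02Rik, a non-coding transcript of the opposite strand.
Tet2: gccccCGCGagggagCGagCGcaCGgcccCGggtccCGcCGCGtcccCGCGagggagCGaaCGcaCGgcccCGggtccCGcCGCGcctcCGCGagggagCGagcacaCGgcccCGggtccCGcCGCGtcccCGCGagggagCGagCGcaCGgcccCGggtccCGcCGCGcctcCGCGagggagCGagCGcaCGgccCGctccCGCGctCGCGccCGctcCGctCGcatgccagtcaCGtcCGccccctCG
Asxl1: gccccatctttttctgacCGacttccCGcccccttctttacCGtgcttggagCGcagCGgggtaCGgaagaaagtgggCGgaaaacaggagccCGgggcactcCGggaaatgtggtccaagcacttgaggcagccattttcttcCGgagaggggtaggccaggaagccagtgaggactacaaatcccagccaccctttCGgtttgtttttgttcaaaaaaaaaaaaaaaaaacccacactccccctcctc
The Tet2 stretch holds 51 CpG and the Asxl1 stretch 11. The E2F motifs TTTCGCGC, TTTGGCGC and TTTCCCGC were searched on both strands, and 1 or more of them stood in 1.84% of all windows. Among the 14 windows they stood in 1, the CpG-rich start of Dnmt1, with TTTCGCGC on the opposite strand and TTTGGCGC on the gene's strand. The expression values were made on another build (mm9) and per gene symbol, so they do not separate the starts or isoforms of Dnmt1 and Dnmt3a.

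All 9 genes were transcribed in every library, across a wide range of levels. Values are in TPM (a relative transcript level corrected for transcript length and scaled to the same total in each library), which allows a rough comparison of different genes. The RNA was amplified and the gene models are not given, so any bias between genes is unknown. In WT HSCs the order from high to low was Idh2, Dnmt1, Dnmt3b, Idh1, Asxl1, Tet3, Dnmt3a, Tet1 and Tet2, and the means of the db/db libraries had the same order. Mean levels in WT ran from 113 ± 21.9 TPM (SD, n = 3) for Idh2 to 5.79 ± 1.49 TPM for Tet2, at the 92.3rd and 25.3rd percentiles of the tested genes. Dnmt3b exceeded Idh1 in 4 of 6 libraries and Tet3 exceeded Dnmt3a in 4 of 6, so these neighbours were not separated beyond their spread. Every other neighbour kept its order in all 6 libraries, although the ranges over the 6 libraries overlapped for all neighbours apart from Dnmt1 and Dnmt3b. A gene's highest library was 1.56 times its lowest for Dnmt1 and 3.04 times for Tet2, the extremes of the 9.

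The comparison asked whether any of these genes differed between db/db and WT HSCs. None of the 9 passed in limma (Benjamini-Hochberg adjusted p under 0.05 over all tested genes, adjusted p 0.920 to 0.975), where 4 of 11931 genes, 0.0335%, passed. At an unadjusted p under 0.05 the count was again 0 of 9, against 5.35% of all tested genes. This fit did not use the pairing of libraries by experiment. With the experiment as a replicate block none of the 9 passed in limma (adjusted p 0.735 to 0.958), where 6 of 11931 genes passed. The log2 fold changes, on the log2(TPM + 1) scale, lay between 0.13 for Tet2 and 0.50 for Tet1. All 9 were above 0, as were 68.1% of tested genes. The median over the 9 was 0.36, and the median over all tested genes was 0.18. In such bulk libraries, fewer cells of a type and less RNA per cell cannot be told apart.

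**Figure D1:**
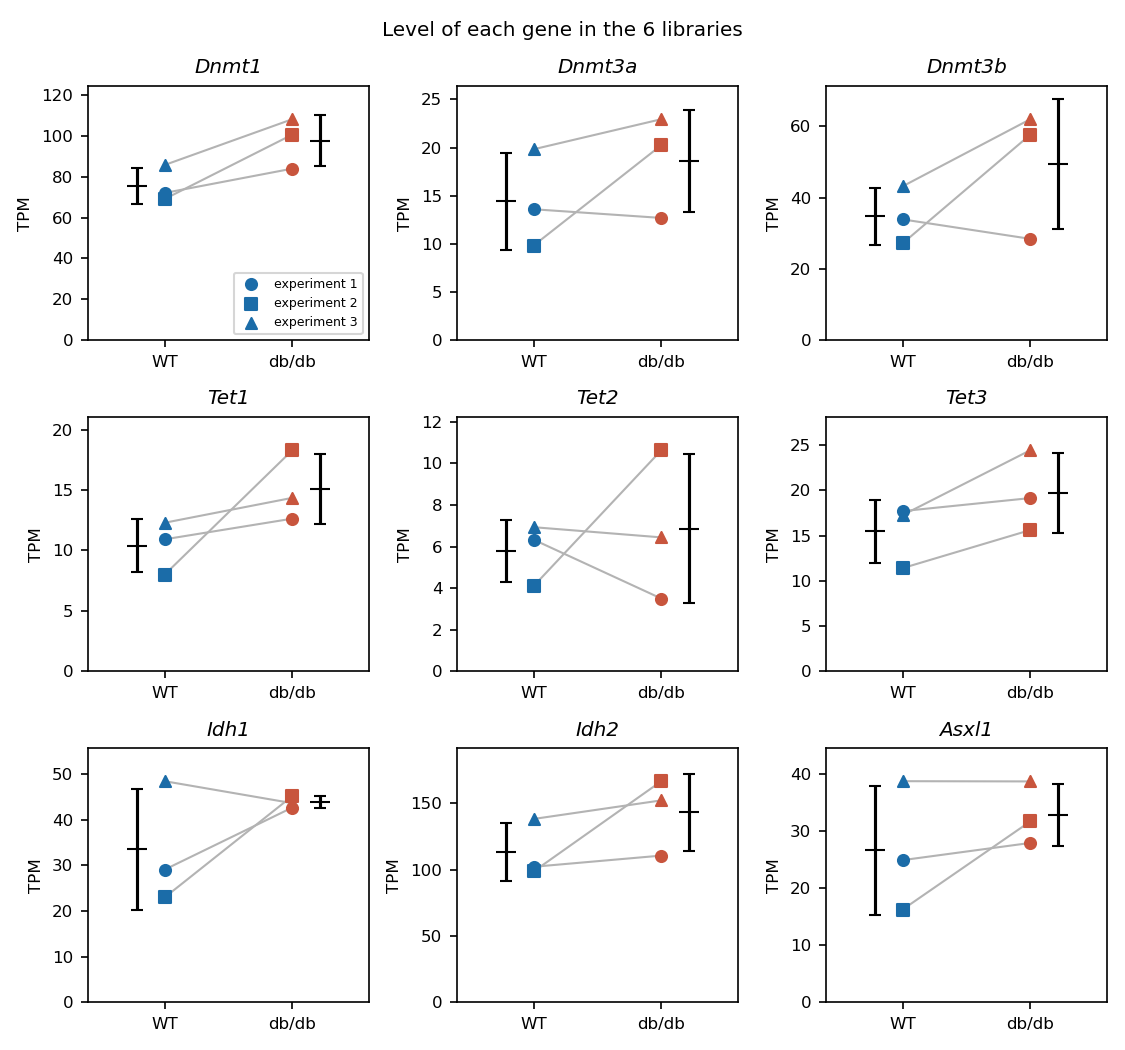
TPM of the 9 genes in each library, WT in blue and db/db in red, with a grey line joining the libraries of an experiment and a bar for the mean ± SD of each group (n = 3). The WT library of experiment 2 (square) is the lowest of the 6 for 8 genes, and Tet1 is the 1 gene whose groups do not overlap.

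Among the writers, Dnmt1, the maintenance methyltransferase, was 71.99, 69.0 and 85.7 TPM in WT (replicates 1, 2 and 3, an order kept throughout) and 83.9, 100.5 and 108 TPM in db/db. Each db/db library was above the WT library of its experiment, but db/db replicate 1 lay below WT replicate 3, so the groups overlapped. The means were 75.6 ± 8.87 and 97.5 ± 12.4 TPM (SD, n = 3 each), and the log2 fold change was 0.36 (SE 0.27, limma adjusted p = 0.920).

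Dnmt3a, a de novo methyltransferase, was 13.6, 9.84 and 19.8 TPM in WT and 12.7, 20.3 and 22.9 TPM in db/db. Values from experiment 1 were close in both genotypes, and most of the difference came from experiment 2. Its log2 fold change was 0.36 (SE 0.39, limma adjusted p = 0.925). Leaving out WT replicate 2 gave 0.13 and db/db replicate 3 gave 0.20, and leaving out WT replicate 3 or db/db replicate 1 gave 0.60.

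Dnmt3b, the other de novo methyltransferase, was 33.9, 27.2 and 43.2 TPM in WT and 28.5, 57.7 and 62.0 TPM in db/db. It was lower in db/db in experiment 1 and higher in experiments 2 and 3. The log2 fold change was 0.44 (SE 0.34, limma adjusted p = 0.920). It was 0.79 with db/db replicate 1 left out, and 0.24, 0.29 and 0.28 with db/db replicate 3, db/db replicate 2 and WT replicate 2 left out. Of the de novo enzymes, Dnmt3b had the higher transcript level in every library, at 2.18 to 2.85 times that of Dnmt3a. Dnmt3l, a catalytically inactive cofactor of the de novo enzymes in germ cells, was listed at 0 in all 6 libraries.

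Of the erasers, Tet1 was 10.9, 8.0 and 12.3 TPM in WT and 12.6, 18.3 and 14.4 TPM in db/db. The lowest db/db library stood just above the highest WT library, so the groups did not overlap. That held for 1 of the 9 genes, against 10.2% of tested genes in either direction and 7.85% with db/db higher. The means were 10.4 ± 2.19 and 15.1 ± 2.90 TPM (SD, n = 3 each), and the log2 fold change was 0.50 (SE 0.39, limma adjusted p = 0.920). By an exact permutation test (two-sided) p was 0.1 for Tet1, the smallest value that 3 against 3 libraries allow, and up to 0.9 over the 9 genes, unadjusted. That test did not use the pairing by experiment either. Median-of-ratios scaling divides each library by its median ratio to the geometric mean of each gene, over genes above 0 in every library. After this scaling the groups overlapped for Tet1 and no longer did for Dnmt1.

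Tet2, the TET enzyme most often mutated in clonal haematopoiesis, was 6.33, 4.10 and 6.93 TPM in WT and 3.50, 10.6 and 6.44 TPM in db/db. The db/db libraries included both the lowest and the highest of the 6. The difference was -0.70, 1.19 and -0.09 on the log2 scale in experiments 1, 2 and 3. Over the 3 experiments its log2 fold change was 0.13 (SE 0.48, limma adjusted p = 0.975), which was -0.038 after median-of-ratios scaling, -0.06 when WT replicate 2 was left out and -0.20 when db/db replicate 2 was. It was 0.48, 0.26 and 0.20 when db/db replicate 1, WT replicate 3 and WT replicate 1 were left out in turn.

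Tet3, the TET transcript with the highest mean in both groups, was 17.7, 11.4 and 17.3 TPM in WT and 19.2, 15.6 and 24.4 TPM in db/db. It was higher in db/db in each experiment, with overlapping groups. In db/db replicate 2 it lay below Tet1. Its log2 fold change was 0.34 (SE 0.37, limma adjusted p = 0.925), with 0.14 when WT replicate 2 and 0.18 when db/db replicate 3 was omitted.

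Idh1, the cytosolic isocitrate dehydrogenase, was 29.1, 23.0 and 48.4 TPM in WT and 42.6, 45.2 and 43.6 TPM in db/db. The db/db libraries were close together, at 43.8 ± 1.27 TPM (SD, n = 3), within the range of the WT libraries. Its log2 fold change, 0.45 (SE 0.33, limma adjusted p = 0.920), became 0.74 without WT replicate 3, with an unadjusted p of 0.0365, and 0.22 without WT replicate 2, with an unadjusted p of 0.54. Without WT replicate 3, 9.02% of all tested genes had an unadjusted p under 0.05 in limma.

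Idh2, the mitochondrial enzyme, was 102, 98.7 and 138 TPM in WT and 111, 167 and 152 TPM in db/db. It was higher in db/db in each experiment, mainly in experiment 2, and the groups overlapped. The log2 fold change was 0.33 (SE 0.27, limma adjusted p = 0.920), falling to 0.21 with db/db replicate 2 omitted and reaching 0.51 with db/db replicate 1 omitted.

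Asxl1, a scaffold of chromatin-modifying complexes, was 24.9, 16.3 and 38.7 TPM in WT and 27.9, 31.7 and 38.7 TPM in db/db. In experiment 3 both genotypes had nearly the same level, and the spread of WT covered all 3 db/db values. Its log2 fold change was 0.36 (SE 0.36, limma adjusted p = 0.920). Omission of WT replicate 2 gave 0.06, that of db/db replicate 3 gave 0.24 and that of WT replicate 3 gave 0.66.

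The 95% intervals of the differences show what these libraries leave unresolved. They come from the fit that did not use the pairing by experiment. On the TPM scale all 9 intervals included 0, and they ran from -0.22 to 0.89 for Idh2, the narrowest, and from -0.87 to 1.13 for Tet2, the widest. The upper end was highest for Tet1, at 1.32. For Dnmt3a the interval was -0.46 to 1.18 and for Asxl1 -0.38 to 1.10, so a log2 fold change of 1 lay within both intervals and one of -1 lay within neither.

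**Figure D2:**
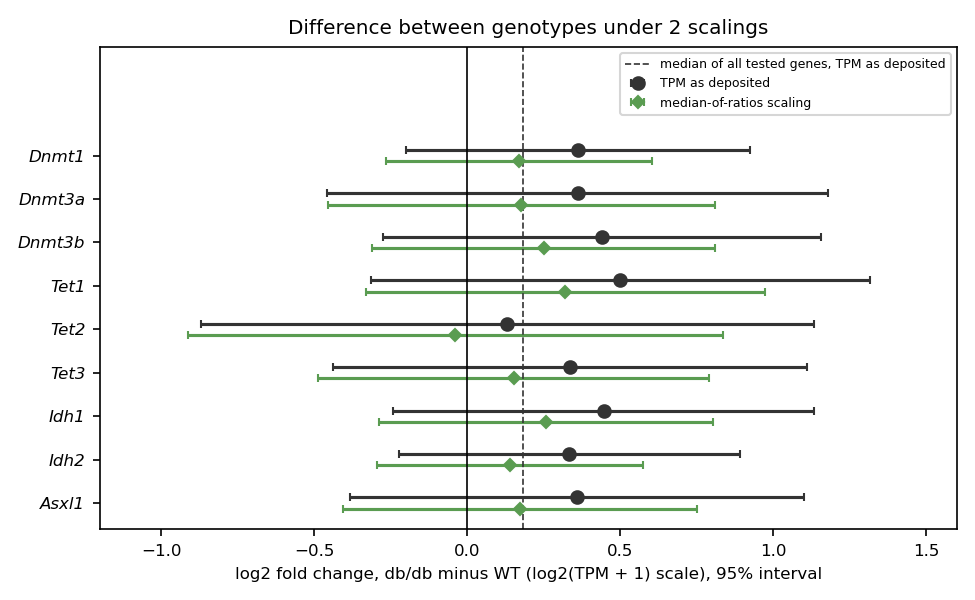
Log2 fold change (db/db minus WT, log2(TPM + 1) scale) with its 95% interval from limma, for TPM as deposited (dark circles) and after median-of-ratios scaling (green diamonds). The dashed line is the median of all tested genes, 0.18, and every interval includes 0.

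The table as a whole also leaned upward. Median-of-ratios scaling brought the median of all tested genes from 0.18 to 0.00 and that of the 9 genes from 0.36 to 0.17. The scaled log2 fold changes were 0.17 for Dnmt1, 0.18 for Dnmt3a, 0.25 for Dnmt3b, 0.32 for Tet1, -0.038 for Tet2, 0.15 for Tet3, 0.26 for Idh1, 0.14 for Idh2 and 0.17 for Asxl1. Relative to the median of all genes, 8 of the 9 lay above it under either scale, Tet2 being the exception. Again none passed in limma, with adjusted p of 0.942 to 0.993.

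For 8 of the 9 genes the difference was largest in experiment 2. Differences within it (db/db replicate 2 minus WT replicate 2) were above 0 for all 9 genes, against 72% of tested genes, and the largest of the 3 experiments for 8, Tet3 being the exception. Over all tested genes experiment 2 held the largest absolute difference for 51.4%, and its median difference was 0.45, against 0.00 and 0.09 in experiments 1 and 3. In experiments 1 and 3, 6 of the 9 genes were higher in db/db, against 49.9% and 57.3% of tested genes. The sign was the same in all 3 experiments for 4 of the 9 genes, against 30.2% of tested genes. These were Dnmt1, Tet1, Tet3 and Idh2, all higher in db/db, and 22.7% of tested genes were higher in all 3. WT replicate 2 was the lowest of the 6 libraries for 8 of the 9 genes, Tet2 being the exception, and for 34.4% of tested genes. This library also had the lowest median-of-ratios size factor, 0.815, against 0.914 to 1.23 in the others, and its 9 genes summed to 267 TPM against 311 to 473 TPM. After scaling it was the lowest library for 4 of the 9 genes. Without WT replicate 2 the median of the 9 was 0.22, that of all genes was 0.08, and 8 of the 9 were above 0. The part of the library's scale in these differences was not tested.

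**Figure D3:**
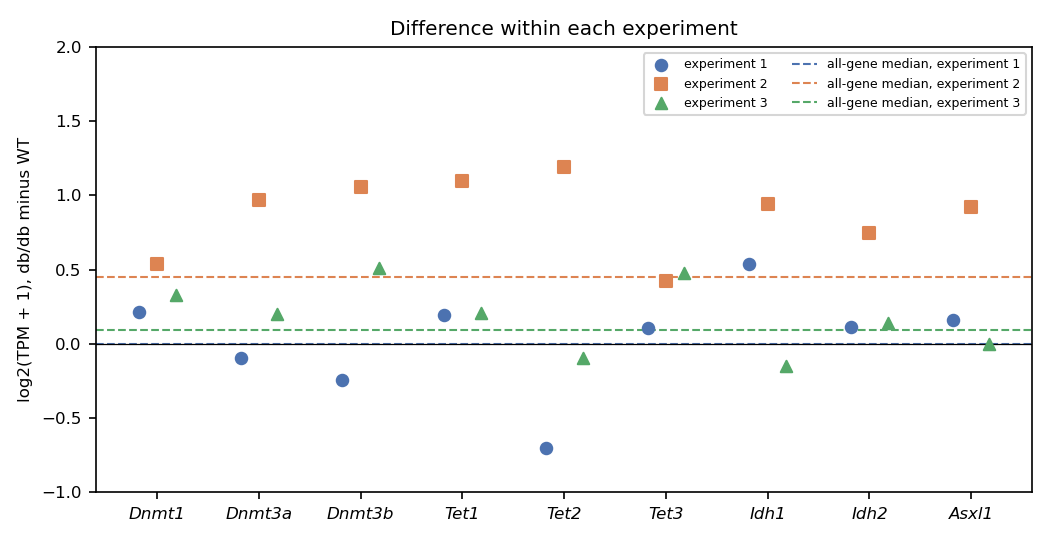
Difference in log2(TPM + 1), db/db minus WT, within each of the 3 experiments for the 9 genes, with a dashed line at each experiment's median over all tested genes. Experiment 2 (squares) gives the largest difference for 8 genes, from 0.54 for Dnmt1 to 1.19 for Tet2.

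The balance within each family does not depend on a library's scale and was described separately, with no test. Dnmt1 made up 61.0 ± 3.79% (SD, n = 3) of the summed DNMT level in WT and 59.8 ± 6.31% in db/db HSCs. Dnmt3b made up 27.7 ± 1.81% and 29.1 ± 5.47%, and Dnmt3a 11.3 ± 2.03% and 11.1 ± 0.886%. These means differed by less than the spread between libraries. The Idh2 share of the Idh1 and Idh2 sum was 77.7 ± 3.53% in WT, against 76.2 ± 3.52% in db/db, also within the spread. The DNMT genes together were 3.42 to 4.51 times the TET genes together over the 6 libraries, with means of 4.00 ± 0.550 in WT and 3.94 ± 0.366 in db/db.

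The TET family was even across the WT libraries and uneven across the db/db libraries. Tet2 took 18.1%, 17.4% and 19.0% of the TET level in WT, while the db/db libraries gave it 9.92%, 23.9% and 14.2%. Tet3 took 50.7%, 48.5% and 47.3% in WT, against 54.3%, 35.1% and 54.0% in db/db. Tet1 took 31.2%, 34.0% and 33.7% in WT, against 35.8%, 41.1% and 31.7% in db/db. The means differed by less than the db/db spread, at 18.2 ± 0.779% and 16.0 ± 7.14% for Tet2 (SD, n = 3 each). The db/db mean for Tet2 was 12.1% without replicate 2 and 19.1% without replicate 1. The db/db library with the highest Tet2 share, replicate 2, had the lowest Tet3 share of the 6. Tet2 had the lowest level of the 9 genes, the read depth behind it is unknown, and the difference in spread was not tested.

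**Figure D4:**
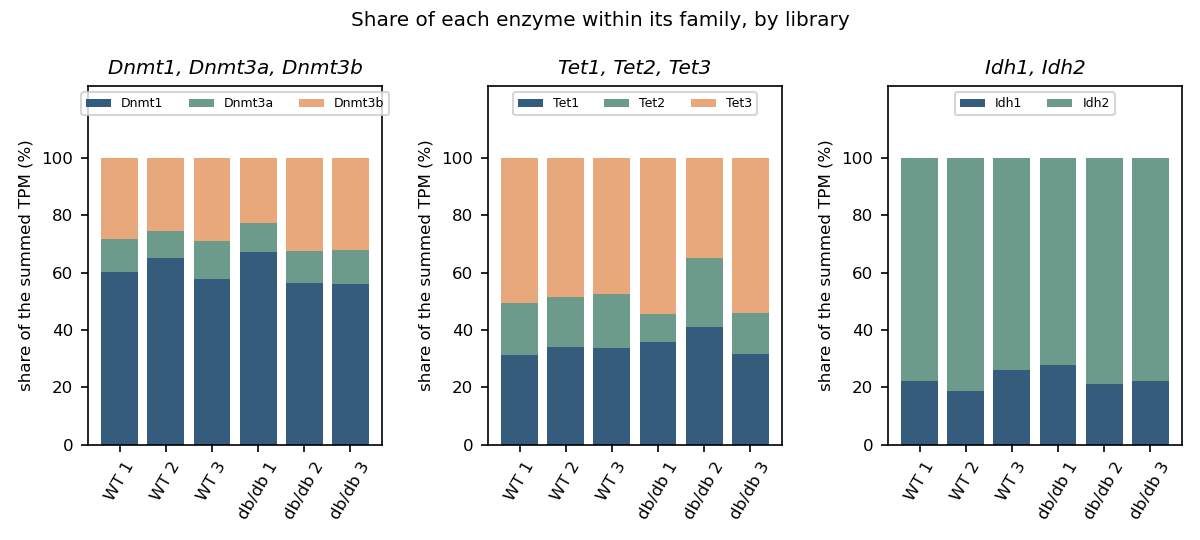
Share (%) of each enzyme in the summed TPM of its family in each library, for the DNMT genes, the TET genes and the isocitrate dehydrogenases. The Tet2 share is 17.4% to 19.0% in the WT libraries and 9.92% to 23.9% in the db/db libraries.

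How alike the genes were across the 6 libraries was measured as the root-mean-square distance between their log2(TPM + 1) profiles, each centred on its own mean. Among the pairs of the 9 genes, the closest were Dnmt1 with Idh2 (0.12), Dnmt3a with Dnmt3b (0.15) and Idh1 with Asxl1 (0.16). The farthest was Tet2 with Tet3 (0.51). Among the 9506 genes whose mean reached 5 TPM, those nearest to Dnmt3a were Actr3 (0.03), Copb1 (0.06) and Faf2 (0.06). Nearest to Tet2 were Foxn2 (0.06), Atp11b (0.08) and Nek7 (0.09), and nearest to Asxl1 were Elf2 (0.05), Ppp2ca (0.06) and Wdfy3 (0.06). Within a wider distance of 0.25 lay 1736, 545 and 1398 genes for Dnmt3a, Tet2 and Asxl1. These are descriptions over 6 libraries that share their scale and experiments.

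Genes that work with the 9 were taken from 8 lists chosen by name, 162 genes in all, of which 161 were in the table and 153 were tested. None passed in limma at an adjusted p under 0.05 (lowest adjusted p 0.559). At an unadjusted p under 0.05, 5 were higher and 1 lower, which is 3.92% of the 153, against 5.35% of all tested genes. With the experiment as a replicate block the counts were 14 and 1, or 9.8%, against 7.03% of all tested genes, again with 0 at an adjusted p under 0.05. These counts moved widely, to 22 and 2 without WT replicate 3, 28 and 1 with array weights, 2 and 4 without db/db replicate 3, and 4 and 3 after median-of-ratios scaling. As shares of the 153 these were 15.7%, 19%, 3.92% and 4.58%. The shares of all tested genes moved too, to 9.02%, 14.1%, 4.12% and 5.46% in the same fits. The median log2 fold change over the 153 genes was 0.21, near the 0.18 of all tested genes. The groups did not overlap, in either direction, for 11 of the 153 genes, against 1214 of 11931 tested genes, 10.2%.

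Among 11 tested partners of the DNMT enzymes, none passed at an unadjusted p under 0.05, and the median log2 fold change was 0.20. Uhrf1, which guides Dnmt1 to newly copied DNA, was 48.4, 75.2 and 61.0 TPM in WT and 61.0, 106 and 100.4 TPM in db/db, higher in each experiment with overlapping groups, and was named outside the rule for its role. Its level was 0.672 to 1.09 times that of Dnmt1 over the 6 libraries. Pcna, the replication clamp that binds Dnmt1, was 504 ± 96.3 and 679 ± 129 TPM (SD, n = 3 each), and its log2 fold change was 0.43 (SE 0.23, limma adjusted p = 0.919). Cdca7l was 143 ± 34.8 and 199 ± 40.8 TPM.

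Because Dnmt1 and Uhrf1 are made most in dividing cells, 20 proliferation genes were set beside them. None passed at an unadjusted p under 0.05, the median was 0.25, and 16 of the 20 were above 0. Over all tested genes the median was 0.18 and 68.1% were above 0. After median-of-ratios scaling the median of the 20 was 0.06. Mcm4, a subunit of the replicative helicase, averaged 32.6 ± 4.72 TPM in WT HSCs and 52.3 ± 17.2 TPM in db/db HSCs (limma adjusted p = 0.919). Tk1, thymidine kinase, was 56.1 ± 16.5 and 79.3 ± 19.0 TPM, and Mcm6 was 148 ± 27.7 and 177 ± 16.5 TPM. Whether the share of dividing cells moves with the Dnmt1 level was not tested.

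Of 10 proteins that read or protect methylated DNA, none passed at an unadjusted p under 0.05, with a median of 0.24. Mbd2, a methyl-CpG binding protein, averaged 37.3 ± 17.1 TPM in WT HSCs and 59.9 ± 17.4 TPM in db/db HSCs, and its log2 fold change was 0.71 (SE 0.35, limma adjusted p = 0.919). Trim28, a corepressor, was 153, 124 and 170 TPM in WT and 204, 223 and 191 TPM in db/db, without overlap (log2 fold change 0.48, adjusted p = 0.919).

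Of 17 tested genes that act after or with the TET enzymes, 2 were higher at an unadjusted p under 0.05 and 0 lower. Over all tested genes that share was 5.35% in either direction. The list's median was 0.27, against 0.18 over all tested genes, and 0.08 after median-of-ratios scaling. Neil1, a DNA glycosylase of base excision repair, had the smallest p of all 153 genes. It was 4.56, 2.88 and 3.40 TPM in WT and 18.1, 6.87 and 14.8 TPM in db/db. Every db/db value was above every WT value, with a log2 fold change of 1.55 (SE 0.47). It did not pass over all genes (limma adjusted p = 0.559, unadjusted p = 0.00323, exact two-sided permutation p = 0.1). Gadd45a, the other of the 2, was 6.61, 1.16 and 2.63 TPM in WT and 6.52, 7.65 and 11.2 TPM in db/db, so experiment 1 showed no rise; it was named after its values were seen. Gadd45b was 14.03 ± 1.52 and 8.25 ± 3.70 TPM, lower in each experiment without overlap (log2 fold change -0.77, limma adjusted p = 0.919). Apex1, the abundant abasic-site endonuclease, was 156 ± 36.6 and 167 ± 27.3 TPM.

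Among 24 tested genes of 2-oxoglutarate and 2-hydroxyglutarate metabolism, 1 gene had an unadjusted p under 0.05 (higher in db/db), and the list's median was 0.11. Glud1, which makes 2-oxoglutarate from glutamate, was 132, 190 and 209 TPM in WT and 213, 271 and 300 TPM in db/db. It was higher in each experiment without overlap, and its log2 fold change was 0.57 (SE 0.26, limma adjusted p = 0.914). Dld, a subunit of 2-oxoglutarate dehydrogenase, was 21.97 ± 6.61 and 35.1 ± 10.4 TPM. Idh3g, of the NAD-dependent isocitrate dehydrogenase, was 425 ± 45.6 and 416 ± 77.0 TPM.

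Of 25 tested genes of one-carbon and S-adenosylmethionine metabolism, which supply the methyl group, 1 gene had an unadjusted p under 0.05 (higher in db/db), and the list's median was 0.17. Mthfd2l, a mitochondrial folate enzyme, was 1.40, 1.61 and 5.97 TPM in WT and 14.4, 4.31 and 9.31 TPM in db/db, with overlapping groups (log2 fold change 1.42, limma adjusted p = 0.808). Mat2a, which makes S-adenosylmethionine, was 200 ± 50.2 and 226 ± 6.96 TPM, and Ahcyl1 was 66.1 ± 17.9 and 85.4 ± 13.4 TPM.

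Around Asxl1, 14 partner and Polycomb genes were tested, 1 gene had an unadjusted p under 0.05 (higher in db/db), and the list's median was 0.17. Foxk1, a forkhead factor that binds the Bap1 complex, was 24.4, 16.4 and 37.4 TPM in WT and 35.03, 42.7 and 49.7 TPM in db/db, with overlapping groups (log2 fold change 0.74, limma adjusted p = 0.919). Hcfc1, a cofactor of Bap1, was 87.2 ± 21.6 and 105 ± 24.2 TPM. Bap1 itself was 43.9, 42.4 and 47.6 TPM in WT and 29.6, 41.0 and 43.1 TPM in db/db, and it was named outside the rule as the partner of Asxl1. Of the paralogues, Asxl2 was 8.69 to 11.3 TPM in WT and 8.23 to 14.02 TPM in db/db, and Asxl3 was at or below 0.12 TPM in every library.

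Of 32 other genes mutated in clonal haematopoiesis, 1 was lower at an unadjusted p under 0.05 and 0 higher, with a median of 0.23. U2af1, a subunit of the splicing factor that binds the 3′ splice site, was 74.0, 94.1 and 74.2 TPM in WT and 41.5, 58.4 and 58.5 TPM in db/db. Every db/db value was below every WT value, and its log2 fold change was -0.61 (SE 0.29, limma adjusted p = 0.919). Gnb1 was 139 ± 40.6 and 192 ± 29.1 TPM, and Gnas, the most abundant of the list, 611 ± 228 and 731 ± 139 TPM. The median difference of the list was -0.23, 0.78 and 0.20 in experiments 1, 2 and 3.

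**Figure D5:**
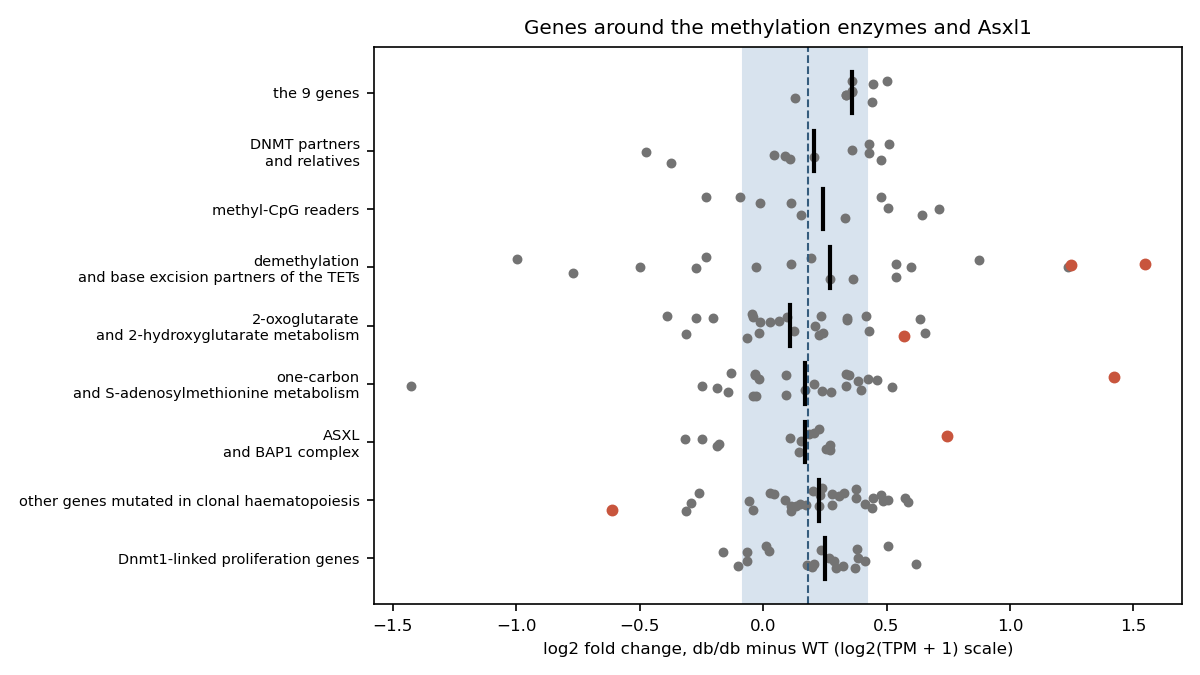
Log2 fold change (db/db minus WT, log2(TPM + 1) scale) of every tested gene of the 8 lists and of the 9 genes, with a black bar at the median of each list and red points at an unadjusted p under 0.05. The dashed line and shaded band are the median, 0.18, and interquartile range of all tested genes.

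The labelled cell type was checked by its markers. All 15 HSC markers, among them Kit, Slamf1, Procr, Hlf and Mecom, were above 0 in every library, with summed levels of 1639 to 2786 TPM in WT and 2332 to 2691 TPM in db/db. Of the B and T lymphocyte genes, Cd3e, Cd3g and Ms4a1 were at 0 in all 6 libraries, as was Il7r, whose product the sort excludes. Others were detected in all 6, with Cd79b at 28.8 to 60.9 TPM and Lck at 4.69 to 9.76 TPM, and the list summed to 41.6 to 66.9 TPM in WT and 39.6 to 68.6 TPM in db/db. Among the antigens that the sort excludes, Cd4 averaged 4.36 ± 2.80 TPM in WT HSCs and 10.8 ± 3.28 TPM in db/db HSCs (limma adjusted p = 0.875, unadjusted p = 0.0193). Cd48, which the sort also excludes, was 1.09 to 5.35 TPM in WT and 1.63 to 21.4 TPM in db/db, highest in db/db replicate 2. The 14 granulocyte and monocyte genes summed to 5161, 1061 and 967 TPM in WT and 4534, 2815 and 2068 TPM in db/db. In limma 7 of 13 tested were higher at an unadjusted p under 0.05, against 5.35% of all tested genes in either direction. At an adjusted p under 0.05, 0 of these 13 passed. The 9 erythroid genes summed to 95.8 to 204 TPM in WT and 321 to 1406 TPM in db/db. Of 7 tested, only Hbb-b2 passed, and alone it was 55.1 to 89.3 TPM in WT and 256 to 1348 TPM in db/db. The log2 fold changes of the others were 1.34 for Klf1, 0.70 for Car1 and 0.35 for Hba-a1. They were 0.10 for Epor, -0.08 for Hbb-b1 and -0.68 for Tfrc. The sums of 5 megakaryocyte genes were 361 to 640 and 483 to 765 TPM, and those of 5 macrophage genes 24.7 to 76.1 and 39.8 to 82.1 TPM. Both libraries of experiment 1 stood above the other 4 in granulocyte genes. Among the 9 genes WT replicate 1 was neither the lowest nor the highest library for any, and db/db replicate 1 was the lowest for Tet2. Without WT replicate 1 all 9 log2 fold changes were above 0 with a median of 0.35, against 0.16 over all tested genes. Without both libraries of experiment 1 the median of the 9 was 0.46 and that of all tested genes 0.28. The part of these other cell markers in the levels of the 9 genes was not tested.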

How the data were processed

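Amplified RNA of 3 WT and 3 db/db samples was sequenced as paired reads of 75 nucleotides from strand-specific poly(A) libraries, per the labels' protocols. The authors deposited 1 TPM value per symbol and library, made with RSEM and Bowtie2 on mm9, per the submitters' processing notes. Their versions, strand settings and gene models are not given in the sources used here. TPM keeps no read depth, so counting error is unknown.

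From these values, limma 3.58.1 in R 4.3.3 was run on log2(TPM + 1) for the 11931 symbols with a mean of at least 1 TPM. Genotype was the only term, so the pairing by experiment was not used. Moderation was trended (17.7 prior and 4 residual degrees of freedom), with two-sided tests and Benjamini-Hochberg adjustment over all tested symbols, called under 0.05. The code was tested on simulated data. Alternatives were pseudocounts of 0.1 and 0.5, other filters, scalings and moderation, array weights, a replicate block and omission of libraries.

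The members and lists were chosen with earlier results of these data known. All 9 members are described. From each list the text names the 2 genes of smallest unadjusted p with the same sign in all 3 experiments and the gene of highest mean, and exceptions are marked. For Dnmt3a, Tet2 and Asxl1 it names the 3 nearest profiles.

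Per the labels, an experiment contributed a pair of libraries, 1 of each genotype. Deviations from group means correlated across genes within experiments 1, 2 and 3 at 0.04, 0.01 and 0.16. Between WT and db/db libraries of different experiments the correlations ran from -0.12 to 0.08, so only experiment 3 lay outside that range. Any pair of libraries shared identical values for 0.654% of tested genes or fewer, so all 6 were kept. Promoter sequences and names came from RefSeq, and all 9 symbols matched.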

Additional observations from a re-analysis of the deposited data

How the results depend on the processing

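None of the 9 genes and none of the 153 pathway genes passed in limma under any of 18 alternative fits or at an adjusted p under 0.1. The lowest adjusted p of a member was 0.375, for Dnmt3b. Of the 9 members, 8 kept a log2 fold change above 0 in all 18 fits. The value for Tet2 was -0.038 after median-of-ratios scaling, -0.040 after quantile normalization, -0.20 (without db/db replicate 2) to 0.48 (without db/db replicate 1) when libraries were left out in turn, and 0.55 without both libraries of experiment 1. At an unadjusted p under 0.05 in limma, Idh1 was higher without WT replicate 3 and Dnmt3b without db/db replicate 1 (0.79, unadjusted p 0.0303). Each was 1 of 9 members in its fit, where 9.02% and 9.2% of all tested genes had an unadjusted p under 0.05. A replicate block for the experiment changed no call among the members or pathway genes, and with it 6 genes passed over the whole table. That count was 4 as reported. It was 7 at an adjusted p under 0.1, 0 without a filter or without a trend, 1 after median-of-ratios scaling, quantile normalization or with a robust prior, 16 with array weights, 15 without experiment 1, and 0 (without db/db replicate 2) to 16 (without WT replicate 1) when libraries were left out in turn. The cause was not tested. Depth is unknown, so the precision of Tet2, the lowest member, could not be set apart from the spread between libraries.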

Other observations

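Amd1, which makes the decarboxylated S-adenosylmethionine used for polyamines, was listed at 18.4 TPM in WT replicate 2 and at 0 in the other 5 libraries. Its near-identical copy Amd2 was 37.4, 16.9 and 64.9 TPM in WT and 37.7, 55.1 and 58.8 TPM in db/db. Their sum was 37.4, 35.3 and 64.9 TPM in WT and 37.7, 55.1 and 58.8 TPM in db/db, so the levels of the single symbols are uncertain. Tdg, the glycosylase that removes the oxidised bases made by the TET enzymes, was listed at 0 in both libraries of experiment 1. Its WT and db/db levels were 0.49 and 5.14 TPM in experiment 2, and 0.69 and 4.35 TPM in experiment 3.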
